A study of Mus musculus with 8 samples.

Results

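The data describe the integrin and laminin chains in FACS-sorted mCherry+CD73+ cells of the mouse femoral growth plate. The members were chosen by gene symbol alone: integrin α chains (*Itga* followed by a number or letter), integrin β chains (*Itgb* followed by 1 digit), and laminin α, β, and γ chains (*Lama*, *Lamb*, and *Lamc* followed by 1 digit). Of the 16536 genes in the counts table, 36 were members: 18 integrin α chains, 8 integrin β chains, and 10 laminin chains. All 36 passed the filter on low counts and were among the 15421 genes tested. *Lama1* was not analysed here.

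Total RNA came from Pthrp-mCherry mice, 4 given DMSO and 4 given SAG, 1 library per mouse. In these mice mCherry is driven by *Pthlh*, the gene of PTHrP, so the sort depended on that reporter and on an antibody to CD73, the product of *Nt5e*. SAG, an agonist of the Hh transducer Smoothened, or its vehicle DMSO was given i.p. once daily from P30 to P36, and the animals were sacrificed at P38. Cells of both femoral growth plates of a mouse were combined. Males and females were used, and the sex of each mouse is not given in the sources used here. The gates stated were mCherry, CD73, and a viability dye, and no gate on an antigen of blood cells is given in those sources.

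Integrins are transmembrane receptors made of 1 α and 1 β chain that hold cells to the matrix or to other cells. The chain pair sets the ligand: β1 pairs bind collagens, laminins, or fibronectin in most tissues, αv pairs bind ligands with an RGD motif and some of them release TGF-β from its latent form, and the β2 and β7 pairs are carried by leukocytes. Laminins are heterotrimers of an α, a β, and a γ chain that build basement membranes, the sheets under endothelium and epithelium and around muscle, nerve, and fat cells. Chondrocytes lie in a collagen-rich matrix and are known for α10β1, a collagen receptor of cartilage.

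Libraries held 24971992 to 46593090 counts, and 3 counts corresponded to 0.0670 to 0.114 CPM (counts scaled to library size by edgeR's TMM method), a floor that covers counting error only. All 12 chondrocyte markers examined were detected, with summed levels of 47181 to 110119 CPM in DMSO-treated and 18927 to 52757 CPM in SAG-treated mice. The 13 neutrophil markers summed to 5239 to 14901 CPM in DMSO-treated and 28217 to 44835 CPM in SAG-treated mice, with no overlap, and edgeR called 10 of them higher with SAG (DESeq2 and limma voom, 11 each). Over all genes tested, edgeR called 2.62% higher, DESeq2 6.6%, and limma voom 6.45%. In bulk RNA, a change in the number of cells of a type and a change in RNA per cell cannot be told apart. DMSO replicate 4 had the lowest depth, and its neutrophil sum was the highest and its chondrocyte sum the lowest of its group. Among sort and pathway genes, *Pthlh* and *Nt5e* changed by 0.37 and -0.51 on the log2 scale (adjusted p = 0.606 and 0.186, edgeR). *Nt5e* was not called, but its groups did not overlap, at 184 to 270 CPM with DMSO and 149 to 174 CPM with SAG. Of all genes tested, 3.84% were lower with SAG without overlap. The Hh targets *Gli1* and *Ptch1* had log2 fold changes of -1.49 and -1.21 (adjusted p = 0.0569 and 0.0859, edgeR; 0.00276 and 0.00852, DESeq2), that is, lower values in mice given the agonist.

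Compared with DMSO, SAG-treated mice had higher levels of *Itgam* and *Itgb2*, the chains of the myeloid integrin αMβ2 (Mac-1, CD11b/CD18), by 2.97-fold and 2.81-fold. These 2 of the 36 members were called higher by edgeR's quasi-likelihood test at an adjusted p under 0.05, where 2.62% of all genes tested were called higher. No member was called lower, where 0.266% of all genes were. The other 34 members, the matrix-binding integrins and the laminins included, did not pass the test in either direction. The median log2 fold change was -0.43 over the members and -0.082 over all genes tested. Of the 36 members 25 were below 0, and of the 15421 genes tested 8457 were.

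Other tools and thresholds added single chains. At an unadjusted p under 0.05, edgeR gave 4 members higher (*Itgam*, *Itgb2*, *Itgal*, and *Itgax*) against 9.58% of all genes, and 7 lower (*Itga1*, *Itga2*, *Itga5*, *Itga6*, *Itga8*, *Itgb8*, and *Lamb2*) against 6.5%. DESeq2 called the same 2 members higher (6.6% of genes) and *Itgb8* lower (3.35% of genes). limma voom with sample quality weights called *Itgal* in addition to *Itgam* and *Itgb2* (6.45% of genes), and called *Itga6*, *Itga8*, and *Lamb2* lower (2.58% of genes). The CPM of the groups did not overlap for *Itgam*, *Itgb2*, and *Itgb3*, which were higher (7.9% of genes), or for *Itgb8* and *Itga2*, which were lower (3.84% of genes).

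Single libraries decided several of these calls. Without DMSO replicate 4, edgeR called 3 members higher (*Itgal*, *Itgam*, and *Itgb2*; 6.44% of genes) and 3 lower (*Itga8*, *Itgb8*, and *Lamb2*; 2.17% of genes). Without DMSO replicate 2, DMSO replicate 3, or SAG replicate 4, no member was called. Calls over the whole table fell as well in these fits. Of 15697, 15749, and 15687 genes tested, 80, 94, and 92 were called higher and 6, 4, and 7 lower. With all libraries 404 and 41 of 15421 were. In the same fits *Itgam* had adjusted p = 0.0640, 0.0697, and 0.0591 (edgeR), with log2 fold changes of 1.45, 1.55, and 1.52. *Itgb2* also missed the threshold without DMSO replicate 1 or SAG replicate 2 (adjusted p = 0.0518 and 0.0632, edgeR). Both chains stayed higher with SAG in each of the 8 fits that left out a library.

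**Figure D1:**
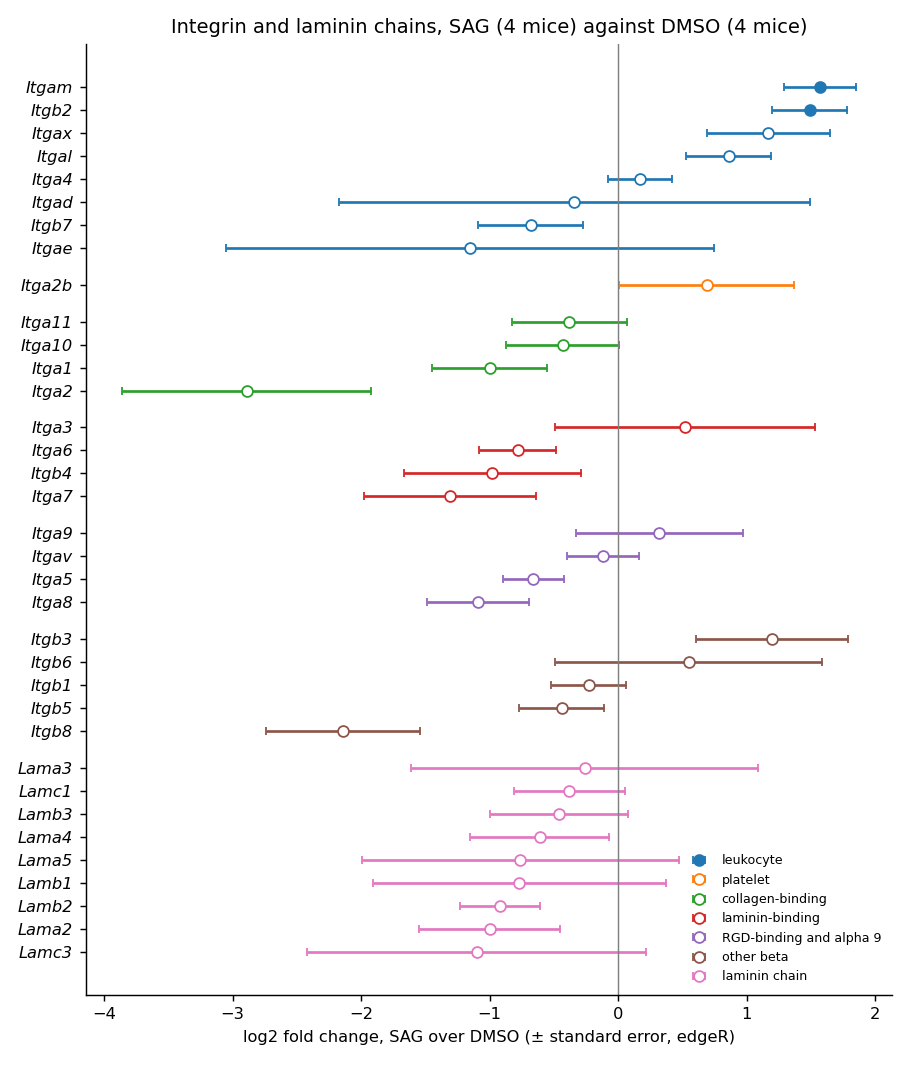
Log2 fold change (x axis, SAG over DMSO, 4 mice each, edgeR) of the chains (y axis, all but 1 of the 36), grouped and colored by class, with standard errors as bars. Filled points, *Itgam* and *Itgb2*, had an adjusted p under 0.05, and open points did not. The laminin chains shown lie below 0.

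The leukocyte class held 8 chains, of which edgeR called 2 higher and 0 lower, with a median log2 fold change of 0.51. *Itgam* encodes αM, which neutrophils, monocytes, and macrophages use to bind ICAM-1, fibrinogen, and complement fragment iC3b. Its level was 254, 260, 372, and 545 CPM in DMSO replicates 1 to 4 and 778, 1377, 927, and 1171 CPM in SAG replicates 1 to 4. Every SAG-treated mouse was above every DMSO-treated mouse, and DMSO replicate 4 lay nearest to the SAG group. The log2 fold change was 1.57 ± 0.28 (SE), with adjusted p = 0.0148 (edgeR).

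*Itgb2* encodes β2, the β chain that αM, αL, αX, and αD share. Its level was 211, 237, 308, and 510 CPM in the DMSO-treated and 718, 1156, 784, and 904 CPM in the SAG-treated mice. The groups did not overlap, and the libraries of each group stood in the order seen for *Itgam*, with DMSO replicate 4 the highest of its group and SAG replicate 2 the highest of all. The log2 fold change was 1.49 ± 0.29 (SE), with adjusted p = 0.0188 (edgeR). *Itgb2l*, a β2-like gene outside the member rule, named after its values were seen because it may share reads with *Itgb2*, was also called higher (2.21 on the log2 scale, adjusted p = 0.0349, edgeR), at levels of 10.4 to 75.1 CPM in DMSO-treated and 122 to 205 CPM in SAG-treated mice.

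*Itgam*, *Itgax*, and *Itgad* are neighbours on chromosome 7 (GRCm38). *Itgam* spans chr7:128062640-128118491 and *Itgax* chr7:128129547-128150657, both on the plus strand. Their sequences are similar, so reads may have been split among them, and another gene model, *Gm49368*, shares 3450 bases of exon with *Itgam* on the same strand. The promoters of *Itgam* and *Itgax* are shown because these neighbours are the α chains with the largest log2 fold changes of the class. Each runs from 250 bases before the start to 50 after it (RefSeq, GRCm38.p6), at chr7:128062390-128062689 and chr7:128129300-128129599, plus strand, 5′ to 3′. Capitals mark GAGGAA on either strand, the core letters bound by PU.1, an ETS factor known to drive myeloid genes.
Itgam: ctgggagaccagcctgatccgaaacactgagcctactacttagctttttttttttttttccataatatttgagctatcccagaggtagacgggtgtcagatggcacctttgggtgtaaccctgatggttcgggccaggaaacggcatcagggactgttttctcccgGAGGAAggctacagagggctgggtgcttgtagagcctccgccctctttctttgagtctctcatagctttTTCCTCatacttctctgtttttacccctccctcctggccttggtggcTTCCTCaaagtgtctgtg
Itgax: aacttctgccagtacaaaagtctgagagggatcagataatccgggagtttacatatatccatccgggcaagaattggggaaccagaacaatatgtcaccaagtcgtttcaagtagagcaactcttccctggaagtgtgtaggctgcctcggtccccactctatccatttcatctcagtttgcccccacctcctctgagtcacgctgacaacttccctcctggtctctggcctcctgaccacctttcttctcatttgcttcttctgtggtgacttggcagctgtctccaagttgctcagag
The *Itgam* window held 3 matches, at 84 to 79 and 15 to 10 bases before the start and 32 to 37 bases after it, and the *Itgax* window held 0. A match is a description of the letters. Of the 23 members with a promoter in the RefSeq table, 14 held the motif, and 28.3% of all 32851 promoters did.

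*Itgal* encodes αL, the chain of LFA-1 found on most leukocytes. It stood at 94.0, 82.9, 97.9, and 237 CPM in the DMSO-treated and 163, 284, 227, and 254 CPM in the SAG-treated mice. The groups overlapped only through DMSO replicate 4. The log2 fold change of 0.86 ± 0.33 (SE) did not pass the test (adjusted p = 0.220, edgeR), and without that library it was 1.37 (adjusted p = 0.00249, edgeR). *Itgax*, αX of dendritic cells and macrophages, stood at 2.80, 5.09, 5.07, and 7.97 CPM in the DMSO-treated and 11.6, 12.4, 7.27, and 15.8 CPM in the SAG-treated mice. SAG replicate 3 fell within the DMSO range, and the log2 fold change was 1.17 ± 0.48 (SE; adjusted p = 0.250, edgeR).

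The remaining leukocyte chains were not called by edgeR, DESeq2, or limma voom. *Itga4*, the α4 chain that pairs with β1 or β7 and binds VCAM-1, was at 73.2 to 173 CPM in the DMSO-treated and 112 to 156 CPM in the SAG-treated mice, with a log2 fold change of 0.17 (adjusted p = 0.825, edgeR). *Itgb7*, the partner of α4 and αE in homing to gut, showed a log2 fold change of -0.68 (adjusted p = 0.482, edgeR). *Itgad* and *Itgae*, αD and αE, were at or below 3.38 CPM in every library, with log2 fold changes of -0.34 and -1.15 (adjusted p = 0.957 and 0.845, edgeR). *Itgad* had 0 counts in 2 DMSO-treated mice, and *Itgae* in 1 DMSO-treated and 2 SAG-treated mice. Exons of *Itga4* overlap *Cerkl* on the opposite strand.

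**Figure D2:**
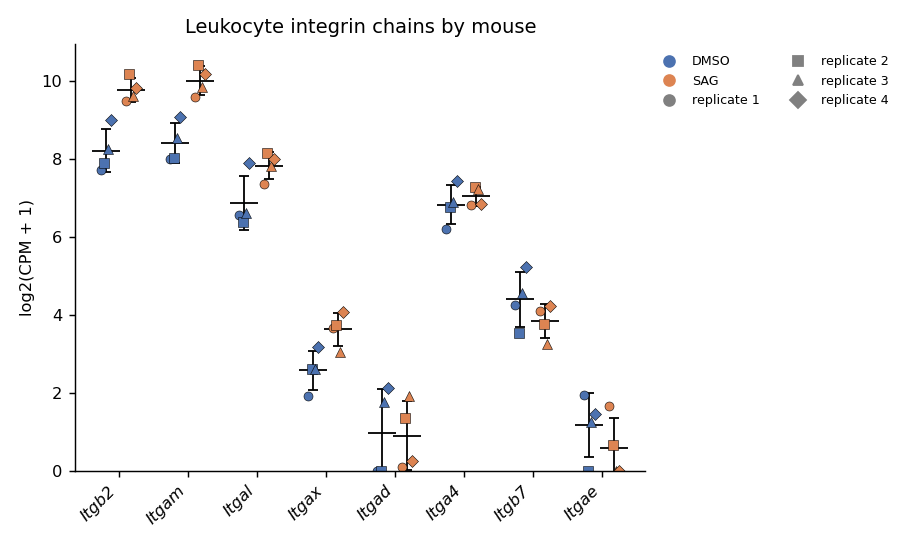
Levels of the 8 leukocyte chains as log2(CPM + 1) (y axis), 1 point per mouse, with the mean and SD of each group as black bars. All 4 SAG points lie above all 4 DMSO points for *Itgb2* and *Itgam*, DMSO replicate 4 reaches the SAG range for *Itgal*, and *Itga4* and *Itgb7* overlap.

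Within the β2 family the chains kept some proportions and not others. The ratio of *Itgam* to *Itgb2* counts was 1.14 ± 0.0729 (SD, n = 4) with DMSO and 1.19 ± 0.0865 with SAG, and the groups overlapped. The ratio of *Itgal* to *Itgam* counts was 0.370, 0.319, 0.263, and 0.436 in the DMSO-treated and 0.209, 0.206, 0.245, and 0.217 in the SAG-treated mice. It was lower in every SAG-treated mouse than in any DMSO-treated mouse. Per length (CPM divided by kb of annotated exon), *Itgam* made up 78.0% ± 3.35 (SD, n = 4) of the 4 α chains that pair with β2 with DMSO and 84.7% ± 0.911 with SAG, again with no overlap. These proportions are descriptions and were not tested.

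The called chains and the neutrophil marker sum were both higher in every SAG-treated mouse than in any DMSO-treated mouse. *Itgam* per 100 counts of the 13 markers was 4.03, 4.96, 3.58, and 3.66 in the DMSO-treated and 2.76, 3.07, 3.02, and 2.95 in the SAG-treated mice. *Itgb2* per 100 marker counts was 2.97 to 4.53 with DMSO and 2.28 to 2.58 with SAG. On this measure both chains were lower in every SAG-treated mouse than in any DMSO-treated mouse. The measure depends on the markers chosen. The 13 markers had log2 fold changes of 0.40 to 2.25, with a median of 2.01, against 1.57 for *Itgam* and 1.49 for *Itgb2*. Among them *Cxcr2* and *Csf3r* had 1.57 and 1.17. The largest part of the sum was *S100a9*, at 12719 of 44835 CPM in SAG replicate 2. Of 11 monocyte and macrophage markers, edgeR called 1 higher (*Ly6c2*, log2 fold change 1.48) and 0 lower, against 2.62% and 0.266% of all genes. DESeq2 also called 1 lower (*F13a1*), where 3.35% of all genes were. The median log2 fold change of the 11 was 0.23, with 9 above 0 and 2 below. The 11 summed to 604 to 1298 CPM with DMSO and 688 to 958 CPM with SAG. *F13a1* alone held 651 of the 1298 CPM, in DMSO replicate 1. Of 7 B-lineage markers tested, edgeR called 0 higher and 3 lower, DESeq2 6 lower, and limma voom 2 lower, and all 7 had an unadjusted p under 0.05 in edgeR. Over all genes tested, DESeq2 and limma voom called 3.35% and 2.58% lower, and 6.5% were lower at an unadjusted p under 0.05 (edgeR). With *Vpreb1*, which was not tested, the B-lineage list had sums of 71.6 to 313 CPM with DMSO and 16.1 to 32.8 CPM with SAG. None of 6 T and NK cell markers was called by edgeR, DESeq2, or limma voom, with sums of 42.4 to 86.4 CPM with DMSO and 44.0 to 52.7 CPM with SAG, and *Klrb1c* and *Gzma* were not analysed here. The part of these cells in the integrin levels was not tested.

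**Figure D3:**
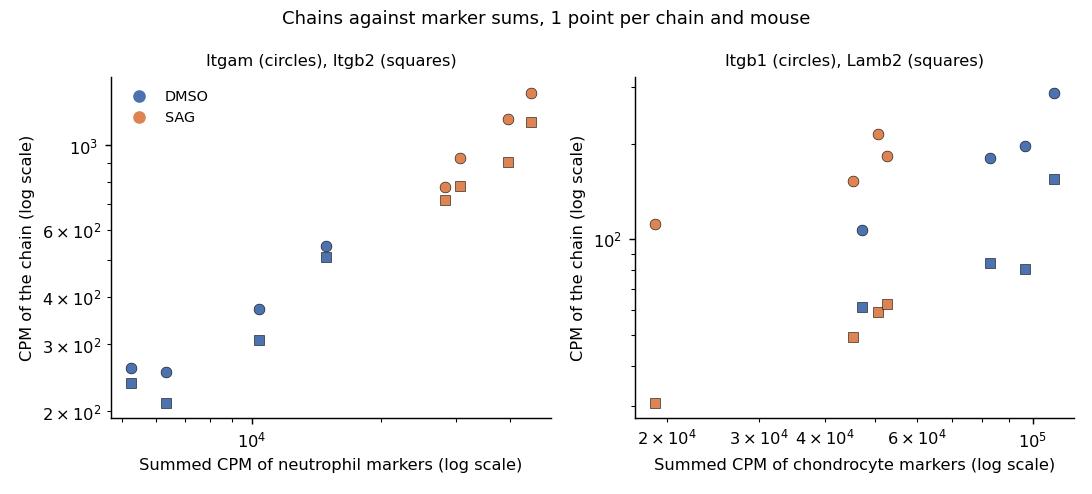
Left, CPM of *Itgam* and *Itgb2* against the summed CPM of 13 neutrophil markers; right, CPM of *Itgb1* and *Lamb2* against the summed CPM of 12 chondrocyte markers; all axes are logarithmic and each point is 1 chain in 1 mouse. On the left SAG points lie above and to the right of DMSO points, and on the right SAG replicate 2 has the lowest marker sum, 18927 CPM.

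Integrin chains of the platelet receptor were variable. *Itga2b* (αIIb) stood at 8.93, 31.0, 31.4, and 5.20 CPM in the DMSO-treated and 10.6, 63.5, 37.9, and 11.8 CPM in the SAG-treated mice. The groups overlapped, with a log2 fold change of 0.69 (adjusted p = 0.702, edgeR). *Itgb3*, which pairs with αIIb on platelets and with αv on osteoclasts and other cells, stood at 38.3, 11.7, 34.5, and 3.07 CPM with DMSO and 42.7, 61.2, 39.2, and 57.8 CPM with SAG. The groups were separated by a narrow gap, and the log2 fold change was 1.20 ± 0.59 (SE; adjusted p = 0.356, edgeR). None of 5 megakaryocyte and platelet markers was called by edgeR, DESeq2, or limma voom, with sums of 14.8 to 57.5 CPM with DMSO and 21.3 to 45.7 CPM with SAG, and *Gp1bb*, *Gp5*, and *Ppbp* were not analysed here. None of 4 osteoclast markers was called by edgeR, DESeq2, or limma voom, with sums of 43.0 to 96.9 CPM with DMSO and 18.9 to 52.8 CPM with SAG, and *Dcstamp* and *Calcr* were not analysed here. Of 7 osteoblast markers edgeR called 0, DESeq2 called 2 lower (*Alpl* and *Bglap*), and limma voom 1 (*Alpl*), with sums of 1625 to 7767 CPM with DMSO and 1483 to 3625 CPM with SAG. Over all genes tested, DESeq2 and limma voom called 3.35% and 2.58% lower.

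All 4 collagen-binding α chains, the partners of β1 for fibrillar and network collagens, had log2 fold changes below 0, with a median of -0.71, and edgeR, DESeq2, and limma voom called 0. *Itga10*, the collagen receptor of cartilage, stood at 87.8, 78.3, 87.8, and 28.0 CPM in the DMSO-treated and 72.1, 18.9, 44.5, and 74.0 CPM in the SAG-treated mice. The lowest library of each group was also the one with the lowest chondrocyte marker sum, and the groups overlapped (log2 fold change -0.43, adjusted p = 0.722, edgeR). *Itga11*, the collagen receptor of mesenchymal cells, and *Itga1* had log2 fold changes of -0.38 and -1.0 (adjusted p = 0.764 and 0.303, edgeR). *Itga2* had the most negative value of all members, -2.89 ± 0.97 (SE; adjusted p = 0.150, edgeR). It stood at 4.08, 2.41, 2.32, and 21.4 CPM with DMSO and 0.287, 1.81, 0.623, and 1.35 CPM with SAG. The groups did not overlap, DMSO replicate 4 carried most of the DMSO signal, and without single libraries the value ran from -3.32 to -1.50. Exons of *Itga1* and *Itga10* overlap other gene models on the same strand.

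Of the 4 laminin-binding chains edgeR called none, with a median log2 fold change of -0.88. *Itga6*, which forms a laminin receptor with β1 or β4, was the most abundant of them per length. It stood at 65.9, 48.9, 46.4, and 28.5 CPM in the DMSO-treated and 39.1, 26.5, 24.1, and 21.1 CPM in the SAG-treated mice. The groups overlapped only because DMSO replicate 4 lay below SAG replicate 1, and the log2 fold change was -0.78 ± 0.30 (SE; adjusted p = 0.228, edgeR; 0.0277, limma voom). *Itga7*, the laminin receptor of muscle, and *Itgb4*, the β chain of hemidesmosomes, had log2 fold changes of -1.31 and -0.98 (adjusted p = 0.380 and 0.557, edgeR). *Itga3*, at or below 4.97 CPM, had one of 0.52 (adjusted p = 0.871, edgeR).

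Fibronectin and RGD receptors gave no call in edgeR with all 8 libraries. *Itga5*, which forms the main fibronectin receptor with β1, stood at 70.6, 71.1, 56.9, and 96.0 CPM in the DMSO-treated and 65.2, 39.5, 40.3, and 41.6 CPM in the SAG-treated mice. SAG replicate 1 overlapped the DMSO group and the others were below it, with a log2 fold change of -0.66 ± 0.24 (SE; adjusted p = 0.196, edgeR). *Itga8*, a nephronectin receptor, stood at 24.3, 23.6, 27.1, and 8.92 CPM with DMSO and 10.3, 6.58, 11.9, and 10.7 CPM with SAG. The overlap again came from DMSO replicate 4, and the log2 fold change was -1.09 ± 0.40 (SE; adjusted p = 0.199, edgeR; 0.0308, limma voom; 0.0232, edgeR without DMSO replicate 4). *Itgav*, the α chain of several β partners, and *Itga9*, a tenascin receptor chain, had log2 fold changes of -0.12 and 0.32 (adjusted p = 0.898 and 0.880, edgeR). *Itga8*, *Itgad*, and *Itgav* overlap antisense or other noncoding models.

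Among the β chains of matrix receptors, *Itgb1* was the most abundant per length, at 47.4 ± 18.4 CPM per kb (SD, n = 4) with DMSO and 40.5 ± 10.6 with SAG. Its level was 289, 197, 180, and 107 CPM in the DMSO-treated and 214, 112, 153, and 183 CPM in the SAG-treated mice. The groups overlapped through most of their range, with a log2 fold change of -0.23 ± 0.29 (SE; adjusted p = 0.788, edgeR). *Itgb5*, a vitronectin receptor chain, and *Itgb6*, an epithelial chain at or below 7.17 CPM, had log2 fold changes of -0.44 and 0.55 (adjusted p = 0.584 and 0.867, edgeR).

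*Itgb8* encodes the β8 chain, which with αv releases active TGF-β from its latent complex. It stood at 7.69, 4.42, 10.1, and 7.78 CPM in the DMSO-treated and 1.55, 1.43, 2.22, and 1.62 CPM in the SAG-treated mice. The groups did not overlap, and the SAG values lay close together. The log2 fold change was -2.14 ± 0.60 (SE), a level 4.40-fold higher with DMSO. It missed the threshold in edgeR's quasi-likelihood test (adjusted p = 0.0846), passed it in DESeq2 (adjusted p = 0.00049), and passed it in edgeR when genes with under 10 counts in any library were removed (adjusted p = 0.0336). It missed it in limma voom (adjusted p = 0.0632) and in edgeR with a replicate block (0.202), other scaling (0.0883 and 0.086), or no filter (0.0925). Of the edgeR fits without 1 library, only that without DMSO replicate 4 passed (adjusted p = 0.0462), with values up to 0.252 in the others.

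Per length the order of the chains was led by *Itgb2*, at 104 ± 44.4 CPM per kb (SD, n = 4) with DMSO and 292 ± 63.2 with SAG. *Itgam* came next at 71.2 ± 27.1 and 212 ± 52.6, then *Itgb1*. With DMSO these 3 neighbours differed by less than the sum of their SDs between mice, and with SAG *Itgam* and *Itgb1* stood apart by more than that. Within each library *Itgb2* was above *Itgam*. *Itgam* was above *Itgb1* in every library but DMSO replicate 1, at 50.6 against 70.9 CPM per kb. The leukocyte class made up 46.8, 54.2, 62, and 79.3% of the summed integrin level per length in DMSO replicates 1 to 4 and 77.7, 90.0, 82.7, and 83.0% in SAG replicates 1 to 4. DMSO replicate 4 lay within the SAG range, and the other DMSO-treated mice lay below it. The ratio of *Itgb2* to *Itgb1* per length was 0.973 to 6.39 with DMSO and 4.49 to 13.8 with SAG.

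**Figure D4:**
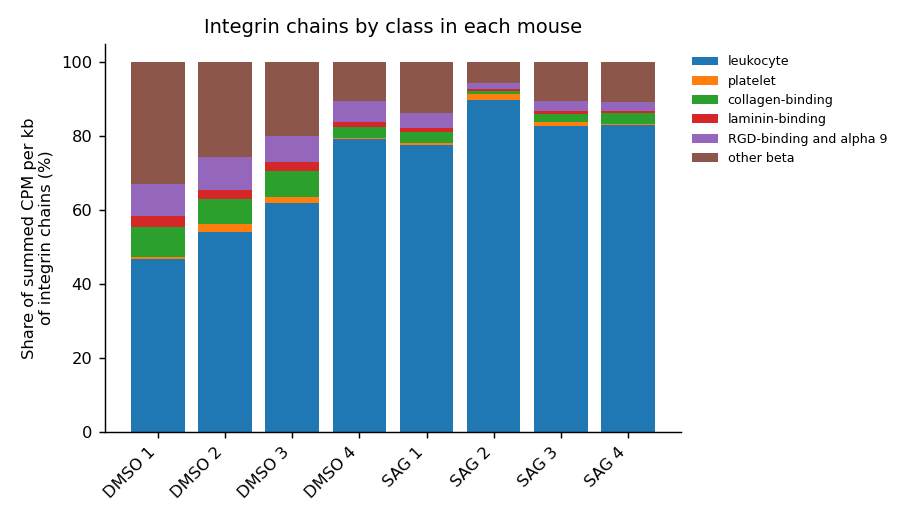
Share of the summed CPM per kb of the 26 integrin chains held by each class (y axis, percent) in each mouse (x axis). The leukocyte class runs from 46.8 to 79.3% in the DMSO-treated mice and from 77.7 to 90.0% in the SAG-treated mice.

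Matrix-binding integrins were also set against chondrocyte RNA. The summed level of the 17 chains was 661 ± 149 CPM (SD, n = 4) with DMSO and 523 ± 119 with SAG, and the groups overlapped. Per 100 counts of the chondrocyte markers it was 0.770, 0.685, 0.783, and 1.03 in the DMSO-treated and 1.23, 1.94, 1.09, and 1.16 in the SAG-treated mice. By this measure every SAG-treated mouse was above every DMSO-treated mouse, the reverse of the order of the means in CPM. The marker sum was mostly *Col2a1*, which held 68832 of 110119 CPM in DMSO replicate 1 and had a log2 fold change of -1.02. Some of the 17 chains, such as *Itgb1* and *Itgb3*, are not confined to chondrocytes. None of the 12 chondrocyte markers was called by edgeR, with a median log2 fold change of -1.03, an unadjusted p under 0.05 for all 12, and 6 and 9 called lower by DESeq2 and limma voom. Over all genes tested, 6.5% were lower at that unadjusted threshold, and DESeq2 and limma voom called 3.35% and 2.58% lower. The part of cell composition in the integrin values was not tested.

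Of the 10 laminin chains, 9 had log2 fold changes below 0 and edgeR called 0, with a median of -0.69. *Lamb2*, which encodes the laminin β2 chain found at synapses and in the kidney filter, was the most abundant laminin chain per length. It stood at 155, 80.9, 84.2, and 61.5 CPM in the DMSO-treated and 59.1, 30.7, 49.5, and 62.7 CPM in the SAG-treated mice. The groups met only at DMSO replicate 4 and SAG replicate 4, and the log2 fold change was -0.92 ± 0.31 (SE; adjusted p = 0.157, edgeR). It passed in limma voom (adjusted p = 0.0463).

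*Lamc1*, the γ1 chain of most laminins, stood at 94.1, 45.9, 74.2, and 16.9 CPM in the DMSO-treated and 61.2, 30.4, 39.3, and 46.3 CPM in the SAG-treated mice. The groups overlapped, with a log2 fold change of -0.38 (adjusted p = 0.755, edgeR). *Lama2*, the α chain of muscle and nerve laminin, ran from 20.4 to 125 CPM with DMSO and from 16.2 to 70.1 CPM with SAG, and *Lama4*, the α chain of vessels and fat cells, from 5.16 to 51.9 CPM and from 12.8 to 19.9 CPM. Their log2 fold changes were -1.0 and -0.61 (adjusted p = 0.417 and 0.663, edgeR). Exons of *Lama2*, *Lama3*, and *Lamc3* overlap antisense models.

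*Lamb1*, the β1 chain of most laminins, stood at 53.2, 12.3, 6.76, and 0 CPM with DMSO and 18, 9.03, 10.7, and 4.77 CPM with SAG. The DMSO group held both the highest library and the only one at 0, and the log2 fold change was -0.77 ± 1.14 (SE; adjusted p = 0.822, edgeR). *Lama3* and *Lamb3*, chains of epithelial laminin, had log2 fold changes of -0.26 and -0.46 (adjusted p = 0.956 and 0.764, edgeR). *Lama5* and *Lamc3* had values of -0.76 and -1.10 (adjusted p = 0.841 and 0.770, edgeR). *Lama3* and *Lama5* were at or below 6.11 CPM in every library, and *Lamc3* exceeded that only in DMSO replicate 4. *Lama2* and *Lama4* made up 93.9% ± 4.63 (SD, n = 4) of the laminin α chain level per length with DMSO and 90.0% ± 6.41 with SAG. *Lamb2* made up 77.7% ± 7.11 and 73.2% ± 7.89 of the β chain level, so the makeup of the laminin chains overlapped between the groups.

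**Figure D5:**
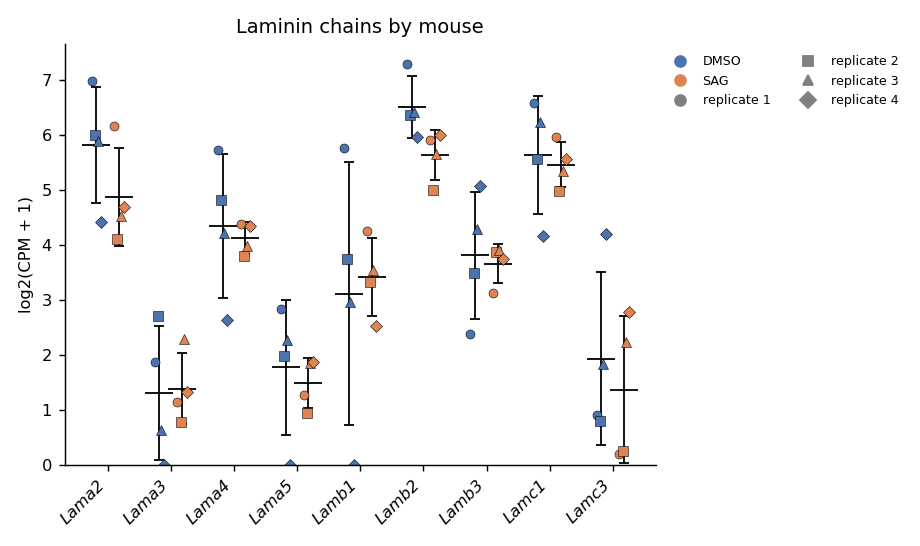
Levels of 9 laminin chains as log2(CPM + 1) (y axis), 1 point per mouse, with the mean and SD of each group as black bars. The groups overlap for each chain shown, and DMSO replicate 4 lies at 0 for *Lama3*, *Lama5*, and *Lamb1*.

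Summed laminin chains came to 291 ± 145 CPM (SD, n = 4) with DMSO and 175 ± 51.6 with SAG, and to 0.339 ± 0.0803 and 0.447 ± 0.122 per 100 chondrocyte marker counts. The groups overlapped on both scales, and the means stood in opposite order. None of 7 endothelial markers was called by edgeR, DESeq2, or limma voom, with sums of 35.8 to 98.1 CPM with DMSO and 36 to 70.1 CPM with SAG, and *Emcn* was not analysed here. None of 4 pericyte and smooth muscle, 4 skeletal muscle, or 3 Schwann cell markers tested was called by edgeR, DESeq2, or limma voom, with sums of at most 671, 26.4, and 15.9 CPM. *Cspg4* alone held 660 of the 671 CPM, in DMSO replicate 1, and its log2 fold change was -0.92 (adjusted p = 0.198, edgeR). The other pericyte and smooth muscle markers were at or below 24.6 CPM in every library. The part of these cells in the laminin levels was not tested.

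DMSO replicate 4 and SAG replicate 2 stood at the edges of their groups for many chains. DMSO replicate 4 was the highest of its group in 7 of the 8 leukocyte chains and the lowest in 9 of the 17 matrix-binding and 7 of the 10 laminin chains. It was also the highest for matrix-binding *Itga1*, *Itga2*, *Itga5*, and *Itga7* and for *Lamb3* and *Lamc3*, 13 members in all. SAG replicate 2 was the highest of its group in 4 of the 8 leukocyte chains and the lowest in 12 of the 17 matrix-binding and 7 of the 10 laminin chains. It was also the highest for *Itga2*, *Itga2b*, *Itga7*, and *Itgb3*, 8 members in all. SAG replicate 2 also had the highest neutrophil and the lowest chondrocyte marker sum of all 8 libraries.

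Genes that act with integrins were counted from fixed lists. Of 27 cytoplasmic adhesion genes, edgeR called 5 higher and 0 lower (2.62% and 0.266% of all genes), with a median log2 fold change of 0.46. DESeq2 called 9 higher and 0 lower (6.6% and 3.35% of genes), and limma voom 11 higher and 2 lower, *Tln2* and *Tns2* (6.45% and 2.58% of genes). The 5 called by edgeR were *Tln1* (talin, which switches integrins to the active state), *Vcl* (vinculin, which ties talin to actin), *Pxn* and *Zyx* (paxillin and zyxin, scaffolds of focal adhesions), and *Rap1b* (a GTPase that recruits talin). *Zyx*, for example, stood at 581, 568, 557, and 684 CPM in the DMSO-treated and 1057, 1425, 978, and 1134 CPM with SAG, which is 0.94 ± 0.18 on the log2 scale (SE; adjusted p = 0.0187, edgeR). The value was 1.12 for *Vcl*, and *Tln1*, *Pxn*, and *Rap1b* had values of 0.89, 0.97, and 0.90, with adjusted p of 0.0143 to 0.0300 over all 5 (edgeR). Each of the 5 had groups that did not overlap, and each lost its call without DMSO replicate 2 and without DMSO replicate 3, with adjusted p up to 0.125 (edgeR). Some also lost it without DMSO replicate 1 (*Tln1*, *Pxn*, *Zyx*), SAG replicate 2 (all but *Rap1b*), SAG replicate 3 (*Tln1*, *Pxn*), or SAG replicate 4 (all but *Vcl*). The neutrophil marker sum was also higher in every SAG-treated mouse than in any DMSO-treated mouse. Within the DMSO group that sum was highest in replicate 4 and lowest in replicate 2. *Tln1*, *Vcl*, *Pxn*, and *Zyx* were also highest there in replicate 4, and *Rap1b* was highest in replicate 1. *Pxn* was lowest in replicate 2, *Tln1* in replicate 1, and *Vcl*, *Zyx*, and *Rap1b* in replicate 3. The part of neutrophils in these levels was not tested.

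Among ligands of the integrins, edgeR called 1 of 8 matrix ligands tested lower and 0 higher, with a median of -0.67. Over all genes tested, edgeR called 0.266% lower and 2.62% higher, and DESeq2 and limma voom called 3.35% and 2.58% lower. Of the 8 matrix ligands, DESeq2 and limma voom called 2 lower, *Fn1* and *Spp1* (osteopontin; adjusted p = 0.0122 and 0.0347). The gene called by edgeR was *Fn1*, fibronectin, the ligand of α5β1, at 22570, 25055, 17117, and 11911 CPM in the DMSO-treated and 8751, 4154, 9438, and 8104 CPM in the SAG-treated mice. The groups did not overlap, and the log2 fold change was -1.33 ± 0.31 (SE; adjusted p = 0.0445, edgeR). That call held only without DMSO replicate 4 among the 8 fits that left out a library, with adjusted p of 0.0760 to 0.139 (edgeR) in the other 7. None of 8 cell-surface ligands was called by edgeR, DESeq2, or limma voom, with a median of -0.23. Of 15 other basement membrane genes edgeR called 0, with a median of -0.52. *Nid2*, which links laminin to collagen IV, had the most negative value (log2 fold change -1.13, adjusted p = 0.0890, edgeR), and DESeq2 and limma voom called it lower (adjusted p = 0.0109 and 0.0116). *Madcam1*, *Vtn*, *Fga*, and *Fgb* were not analysed here.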

How the data were processed

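RNA sequencing was performed on sorted mCherry+CD73+ cells of 4 DMSO-treated and 4 SAG-treated mice, each library from a different mouse. The authors deposited raw counts of reads per gene and library. The submitters' processing notes name kallisto, DESeq2, and GRCm38, and how these were used is not given in the sources used here. The extraction and library kits named by the labels were for low RNA inputs, with strand-specific total RNA libraries. All values were whole numbers, which kallisto's own estimates need not be.

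edgeR 4.0.16 in R 4.3.3 was used for the counts. Genes were filtered by filterByExpr, scaled by TMM, and compared by its robust 2-sided quasi-likelihood test, adjusted by Benjamini-Hochberg over the 15421 genes tested (threshold 0.05, common dispersion 0.466). Coordinates and exon lengths came from GENCODE release M21, in which 16524 symbols were found. Levels between genes were compared as CPM per kb of the union of annotated exons. Alternatives were DESeq2 1.42.0, limma 3.58.1 (voom with sample quality weights), other scaling, other filters, a replicate block, and each library left out in turn. Of 12 pairs of libraries within a group, none agreed within sampling noise. Counting error alone is small at these depths for the abundant chains.

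The members, lists, and tests were chosen with earlier results of these data known. Every member was to be named, and 1 is counted but its own values are not reported here. Of the adhesion, ligand, and basement membrane lists, genes with an adjusted p under 0.05 were named, and otherwise at most the 3 with the largest change. Of the marker lists, called genes and at most the 3 of highest level could be named, and *Pthlh*, *Nt5e*, *Gli1*, and *Ptch1* served as checks. Other genes called by DESeq2 or limma voom alone were named after their values were seen. Protein sequences were not used here.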

Additional observations from a re-analysis of the deposited data

Results flagged for a closer look

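Each chain's 4 values in a group were screened for a library far from the others, by the gap to its neighbour over the range of the group (Dixon's 95% critical value). Of 72 sets of values 7 exceeded it, where chance gives about 1 in 20, or 3.6. DMSO replicate 4 gave 4 of the 7.

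In DMSO replicate 4, *Itgal* was at 237 CPM, with the next highest library of its group at 97.9 CPM. *Itga2* was at 21.4 CPM there, with the next at 4.08 CPM, and *Lamc3* at 17.2 CPM, with the next at 2.54 CPM. *Itga10* was at 28.0 CPM there, with the next lowest at 78.3 CPM.

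*Itgb6* was at 7.17 CPM in DMSO replicate 2, with the next highest at 1.03 CPM. In SAG replicate 1, *Itga5* was at 65.2 CPM and *Lama2* at 70.1 CPM, with the next highest libraries of the group at 41.6 and 24.7 CPM.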

How the results depend on the processing

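Under the alternatives, 493 of 532 member values kept their direction and their side of the threshold, 21 reversed in sign over 10 members, 10 gained a call, and 8 lost one. The cause was not tested. Signs held in the other 26 members. The number of members called higher was 0 to 3 when 1 library was left out, and 0 to 3 were called lower. Members called lower numbered 1 by DESeq2, 3 by limma voom, and 1 with at least 10 counts in every sample. Over all genes, 404 were called higher and 41 lower. DESeq2 called 812 and 413, limma voom 995 and 398, and fits without 1 library 80 to 1017 and 4 to 343, and with at least 10 counts in every sample 87 were lower. The median log2 fold change of all genes was -0.082, and -0.14 with plain library size.

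The replicate block called 2 members higher and 18 genes lower. Same-numbered mice correlated at 0.01 to 0.12 and 4 of 8 libraries correlated best with their own number, so the numbers were not taken as pairs. Under the block *Tln1*, *Pxn*, and *Fn1* lost their calls (adjusted p = 0.0628, 0.0582, and 0.112, edgeR), and *Itgad*, *Lama3*, and *Lamb1* reversed to 1.36, 0.95, and 0.55. With limma voom *Itgad*, *Lamb3*, and *Lamc3* reversed to 2.79, 0.28, and 0.058.

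Without 1 library the log2 fold changes ran from -0.0019 to 0.44 for *Itga4*, -0.08 to 0.76 for *Itga9*, -1.24 to 0.55 for *Itgad*, -0.28 to 0.013 for *Itgav*, -0.40 to 0.036 for *Itgb1*, -0.93 to 0.77 for *Lama3*, -0.92 to 0.0062 for *Lama4*, -1.16 to 0.74 for *Lamb1*, -0.78 to 0.15 for *Lamb3*, and -1.98 to 0.87 for *Lamc3*. Chains near the floor have wide errors.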
